A study of Rattus norvegicus with 138 samples.

Results

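Levels of 10 genes that mark microglia were followed through 3 brainstem nuclei of hypertensive and normotensive female rats: Csf1r, Cx3cr1, P2ry12, Tmem119, Trem2, Tyrobp, Itgam, Itgb2, Aif1 and Cd68. They were chosen by name as established microglial markers, 10 of the 32883 genes in each count table, and the rule uses no measured value, although it was set with earlier results of these data known. All 10 passed the low-count filter in each of the 3 nuclei, where 13793 genes of the nucleus of the solitary tract (NTS), 13408 of the caudal ventrolateral medulla (CVLM) and 13411 of the rostral ventrolateral medulla (RVLM) were tested. Female spontaneously hypertensive rats (SHRs, SHR/NHsd) and normotensive Wistar–Kyoto rats (WKY rats, WKY/NHsd) were killed at 5 ages from 8 to 24 wk (8, 10 and 12 wk, then 16 and 24), chosen to follow the development of hypertension. The WKY groups held 5, 4, 3, 3 and 3 rats and the SHR groups 5, 5, 6, 6 and 6, in order of age. Each of the 46 rats gave 1 RNA-seq library per nucleus, made from bilateral tissue punches. The labels give no treatment and no engineered allele for either strain, and the 2 strains are separate inbred stocks, so genetic background and blood pressure cannot be told apart between them.

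Microglia are the resident macrophages of the brain. They depend on the receptor encoded by Csf1r for survival, sense neurons and injury through surface receptors such as those of Cx3cr1 and P2ry12, and pass signals from receptors that lack a signaling tail, Trem2 among them, through the adaptor Tyrobp. Itgam and Itgb2 encode the paired chains of the complement receptor CD11b/CD18, Aif1 encodes the actin-bundling protein IBA1 that is widely stained to see microglia, and Cd68 encodes a lysosomal glycoprotein of phagocytic cells. Most of these genes are also expressed by blood-derived and perivascular macrophages. In a tissue punch, fewer cells of a type and less RNA per cell cannot be told apart.

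Levels are given below as CPM, the count of a gene as a share of its library's total, normalised on 1 scale over the libraries of all 3 nuclei. The libraries held between 5904581 and 17889417 counts, and the number of counts behind a value differed between members: 1 to 47 per library for Cd68, 8 to 160 for Itgam, 29 to 257 for Itgb2 and 211 to 2242 for Csf1r. The SD between rats of a group had a median over the 30 groups of 40.5% of the mean for Cd68 and 30.7% for Itgam, against 12.6% for P2ry12, so values of the first 2 genes carried the wider error. Library names end in a number, 1 or 2, which is 2 in every 10 wk library, in 3 of the 5 WKY rats of 8 wk and in 1 SHR each of 12 and 24 wk. What the number means is not given, and at 10 wk it cannot be told apart from age. In the CVLM, 2 libraries, 1 of each strain, are titled 8 wk but carry an age of 10 weeks in another label, and were kept at 8 wk. The RVLM library of WKY rat 3 of 8 wk (replicate 3 in the labels' order) stood apart: 3376 of its 14043 genes lay more than 2-fold from the median of the 4 other rats, against a median of 697 genes over all libraries. In that library Aif1 was at 75.2 CPM and Trem2 at 14.4 CPM, the highest of the group, whereas Csf1r was at 29.4, P2ry12 at 8.10, Cx3cr1 at 7.96 and Itgam at 1.54 CPM, the lowest of the group. Strain, age and nucleus results from the RVLM are therefore given without this library wherever its absence changed a call. The correlations between members were not recomputed without it.

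Upstream sequences were read for 5 of the 10 members, Itgam, Csf1r, Cx3cr1, Trem2 and Cd68, from the RefSeq promoter table of the rat build GRCr8, which starts 250 bases before a listed start site. The core recognised by the myeloid factor PU.1 (encoded by Spi1), GAGGAA, or its reverse complement TTCCTC, was found in that window in 4 of the 5, all but Cx3cr1, and in 23.3% of the 33469 promoters of the table. The longer form GAGGAAGT was found in none of the 5 windows and in 2.04% of the table. The 3 stretches that lay outside the gene itself and held a match are printed here. For Cx3cr1 the window lay wholly within the gene, so no sequence before that gene was searched. For Csf1r 23 bases of the window lay outside the gene and held no match. All 10 members were higher in the NTS than in the other nuclei. A link between the match and the level was not tested. The capitals mark the match; binding was not measured.
Itgam, chr1:192089342-192089495, plus strand: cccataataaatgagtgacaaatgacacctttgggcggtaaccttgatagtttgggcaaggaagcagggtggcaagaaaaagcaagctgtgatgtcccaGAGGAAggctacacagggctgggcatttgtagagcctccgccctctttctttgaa
Trem2, chr9:20151798-20152029, minus strand: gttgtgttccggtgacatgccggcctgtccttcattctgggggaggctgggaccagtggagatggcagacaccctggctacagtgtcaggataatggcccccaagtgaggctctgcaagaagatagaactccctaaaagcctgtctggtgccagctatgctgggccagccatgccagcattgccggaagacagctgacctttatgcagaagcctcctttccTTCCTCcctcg
Cd68, chr10:54882442-54882691, minus strand: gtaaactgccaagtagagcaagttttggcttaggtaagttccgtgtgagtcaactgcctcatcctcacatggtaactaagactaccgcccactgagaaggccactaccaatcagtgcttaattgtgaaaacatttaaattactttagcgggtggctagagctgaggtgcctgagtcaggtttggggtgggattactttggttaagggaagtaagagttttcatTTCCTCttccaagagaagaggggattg

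**Figure D1:**
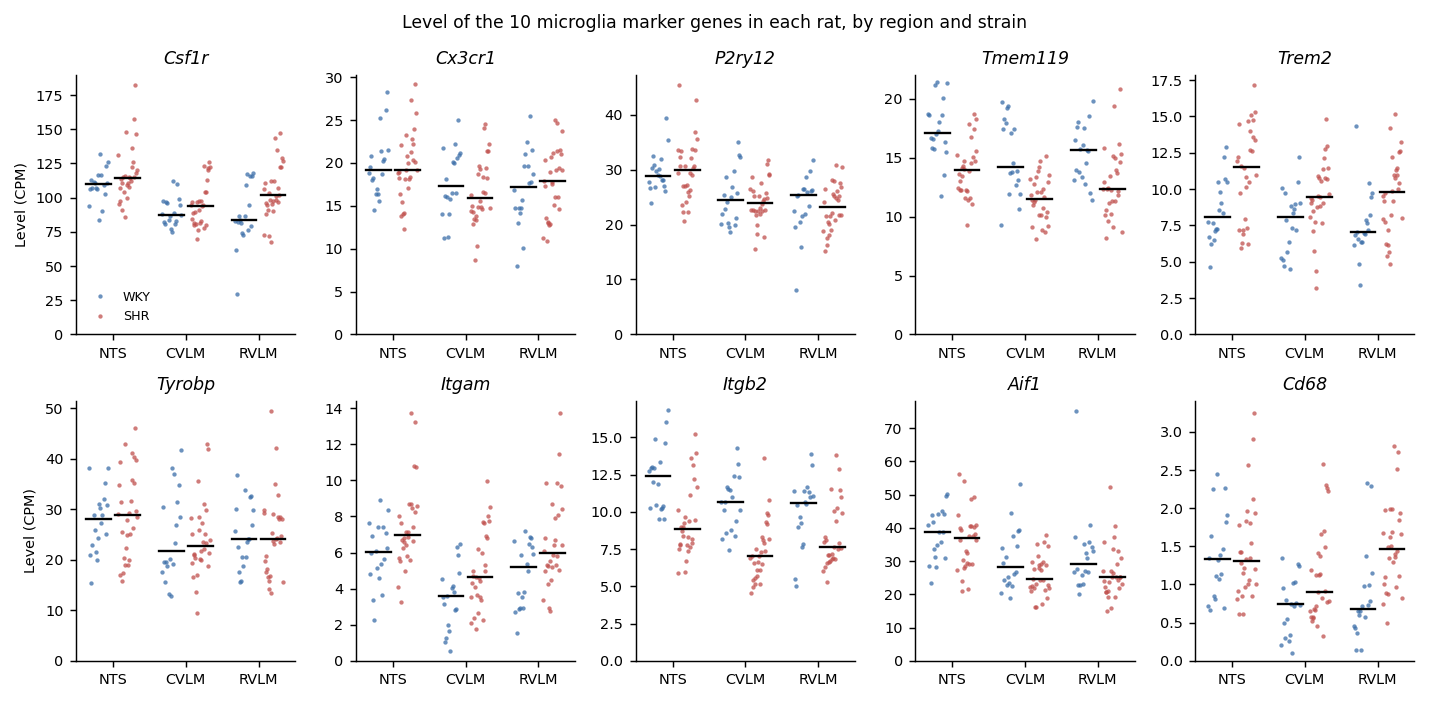
Level of each microglia marker gene in CPM (vertical axis, from 0) in the 18 WKY rats (blue) and 28 SHRs (red) in the NTS, CVLM and RVLM, 1 point per library, with the median of each strain as a black bar. Itgb2 and Tmem119 sat lower in SHRs in every nucleus, and the RVLM library with Csf1r at 29.4 CPM and Aif1 at 75.2 CPM can be seen apart from the rest.

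The NTS held higher levels of all 10 members than either the RVLM or the CVLM, by edgeR's quasi-likelihood test over all libraries with the rat as a block and Benjamini-Hochberg adjustment over 14043 genes. The log2 fold change between NTS and RVLM ran from 0.16 for Tmem119 to 0.38 for Aif1, with adjusted p from 2.1e-10 to 0.019, where 72.7% of all tested genes were called. Between NTS and CVLM it ran from 0.19 for Trem2 to 0.71 for Itgam, with adjusted p from 6.4e-10 to 0.0067, where 65.9% of genes were called. Called as higher in the NTS were 35.8% of all genes against the RVLM and 33.9% against the CVLM. With so many genes called, the count of members alone says little. The members were not tested as a set, and the sizes below carry the description. The median change was 0.23 and 0.28 for the members, against -0.01 and 0.01 over all genes tested.

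Aif1 showed the difference in most rats. Its level ran from 21.0 to 56.4 CPM (median 37.5) in the NTS, CVLM values ran from 16.1 to 53.2 CPM (median 26.4), and RVLM values from 15.1 to 75.2 CPM (median 26.5). The ranges overlapped, but within a rat the NTS was above the RVLM in 40 of 46 rats and above the CVLM in 38. P2ry12, the receptor by which microglial processes follow extracellular nucleotides, had medians of 29.4, 24.2 and 24.3 CPM in the NTS, CVLM and RVLM. Its NTS level exceeded the RVLM level in 41 of 46 rats (log2 fold change 0.35, SE 0.05, adjusted p = 2.1e-10) and the CVLM level in 42. Csf1r, the receptor for the survival factors CSF1 and IL-34, had medians of 111.6, 90.2 and 97.0 CPM in the same order, and the NTS was above the CVLM in 43 of 46 rats. For Tyrobp, the adaptor of TREM2, the NTS exceeded the RVLM in 31 of 46 rats, and for Cd68 in 26, the lowest count of the 10. Without the 3 WKY rats of 8 wk and the 2 older SHRs whose library names end in 2, the Cd68 difference between NTS and RVLM was no longer called (log2 fold change 0.29, adjusted p = 0.067).

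The CVLM and RVLM were closer to each other. Itgam was lower in the CVLM (log2 fold change -0.47, SE 0.10, adjusted p = 2.2e-05), with a median of 4.25 CPM against 5.82 in the RVLM, and the CVLM was the higher in 12 of 46 rats. Cd68 was also lower in the CVLM (-0.35, SE 0.14, adjusted p = 0.030). The other 8 members were not called, in a comparison that called 54.0% of genes, and the Cd68 call was lost without the 2 CVLM libraries of uncertain age (adjusted p = 0.075). The Itgam difference lay between -0.43 and -0.49 under the 7 alternatives run for it and was called in each.

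**Figure D2:**
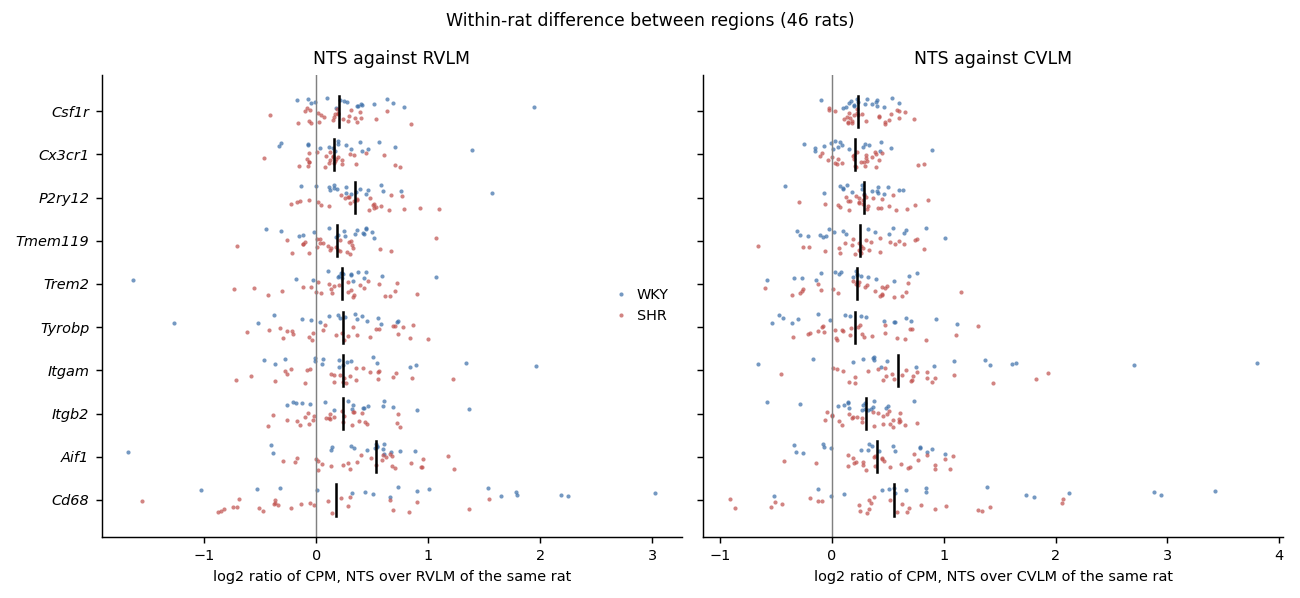
The log2 ratio of CPM between the NTS and the RVLM (left) or CVLM (right) of the same rat (horizontal axis), 1 point per rat, for each member (rows), with the median of the 46 rats as a black bar and 0 as a grey line. Medians lie to the right of 0 for all 10 genes in both panels, and points of most rats lie on the same side, from 26 of 46 rats for Cd68 against the RVLM to 43 for Csf1r and Itgam against the CVLM.

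In SHRs alone, 10 of the 10 members were higher in the NTS than in the CVLM and 8 of 10 higher than in the RVLM, where 55.7% and 64.4% of genes were called. In WKY rats alone the counts were 7 and 7, where 52.6% and 62.2% of genes were called. Cd68 had a log2 fold change between NTS and RVLM of -0.07 in SHRs (SE 0.16, adjusted p = 0.72) and 0.73 in WKY rats (SE 0.21, adjusted p = 0.0018). The difference between these 2 values was -0.80 (SE 0.26, adjusted p = 0.10). When the strain difference was compared between nuclei in this way, 0 of 10 members were called for any pair of nuclei, with 1 of 10 at an unadjusted p under 0.05 for each pair, and DESeq2 called 0 as well. The share of all genes called was 1.81% for NTS against RVLM, 0.449% for NTS against CVLM and 0.320% for CVLM against RVLM. A strain difference that was called in 1 nucleus and not in another is therefore not shown to differ between them.

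Markers of other cell types also differed between nuclei. Of all genes, 35.8% were called higher and 36.9% lower in the NTS relative to the RVLM, and 33.9% and 32.0% relative to the CVLM. All 8 oligodendrocyte markers tested, such as those for myelin proteins, were lower in the NTS than in the RVLM and the CVLM. So were all 6 endothelium markers tested. Of 9 neuron markers, 6 were lower in the NTS than in the RVLM. The neuron markers Gad1, Syt1 and Slc17a6 went the other way, with the NTS above the RVLM in all 46 rats. Of 8 astrocyte markers, 3 were higher and 2 lower in the NTS relative to the RVLM, and 6 higher and 1 lower relative to the CVLM. Gja1, which encodes the gap junction protein connexin 43, was above both in all 46 rats, with medians of 352.5, 203.2 and 222.05 CPM in the NTS, CVLM and RVLM, and Gfap, Aqp4 and Slc1a2, for the astrocyte filament, water channel and glutamate transporter, had log2 fold changes between NTS and RVLM of 1.25, 0.41 and -0.61. Choroid plexus and ependyma markers were higher in the NTS, 5 of 6 tested against the RVLM and 6 of 6 against the CVLM. Clic6 went the other way against the RVLM, with medians of 1.02 CPM in the NTS and 4.51 CPM in the RVLM. Ttr had a median of 0.359 CPM in the NTS but a highest value of 4299 CPM. The summed level of the 8 oligodendrocyte markers had medians of 26131 and 27338 CPM in the NTS of WKY rats and SHRs, 55672 and 48940 CPM in the CVLM, and 46771 and 44275 CPM in the RVLM. Since CPM is a share of each library, the levels of the members are relative to these other cells, and the part of the other cells in the difference was not tested.

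Between strains, averaged over the 5 ages with equal weight, Itgb2 and Tmem119 were lower in SHRs in all 3 nuclei, Trem2 was higher in the NTS and RVLM, Aif1 was lower in the CVLM and Cd68 was higher in the RVLM. That made 3 of 10 members called in the NTS (1 higher, 2 lower), 3 in the CVLM (all lower) and 4 in the RVLM (2 higher, 2 lower), where 11.2%, 12.3% and 10.8% of all genes were called. The members did not move in 1 direction: their median difference was 0.01 (NTS), -0.10 (CVLM) and -0.03 (RVLM), against 0.01, -0.00 and 0.01 over all genes tested. DESeq2 called 3, 4 and 4 members.

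Itgb2, the β2 chain CD18 shared by the leukocyte integrins, was lower in SHRs in every nucleus. In the CVLM its level ran from 7.43 to 14.3 CPM in 18 WKY rats with a median of 10.6, and from 4.57 to 13.6 CPM in 28 SHRs with a median of 7.03. The strains overlapped, yet 26 of 28 SHRs lay below the WKY median. The mean difference there was a log2 fold change of -0.59 (SE 0.08, adjusted p = 2.3e-07). In the NTS the WKY rats ran from 9.49 to 16.8 CPM (median 12.4) and the SHRs from 5.92 to 15.2 CPM (median 8.86), a log2 fold change of -0.41 (SE 0.07, adjusted p = 1.8e-05). In the RVLM they ran from 5.02 to 13.9 CPM (median 10.6) and from 5.29 to 13.8 CPM (median 7.61), a log2 fold change of -0.32 (SE 0.09, adjusted p = 0.014). The SHR mean was the lower at each of the 5 ages in each nucleus, and the call held in all 3 nuclei whichever of the 46 rats was left out. The study named Itgb2 and Aif1 as lower in the CVLM of SHRs and unchanged in the RVLM. It used these same libraries, so their direction in the CVLM is not independent evidence. Its groups rested on a fold-change cutoff at each age, unlike the mean difference tested here, by which Itgb2 was called in the RVLM as well.

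Itgam encodes CD11b, the α chain that pairs with CD18 to form complement receptor 3, and was not called between strains. Its level in the CVLM ran from 0.530 to 6.47 CPM in WKY rats (median 3.56) and from 1.76 to 9.94 CPM in SHRs (median 4.67). The mean log2 fold change was 0.46 in the CVLM (SE 0.17, adjusted p = 0.071), 0.28 in the NTS (SE 0.13, adjusted p = 0.18) and 0.38 in the RVLM (SE 0.15, adjusted p = 0.091). These did not pass the threshold, although the SHR mean was the higher at each of the 5 ages in each nucleus. DESeq2 called the CVLM difference (adjusted p = 0.044), as did 6 of the 46 fits that left out 1 rat. The number of Itgam counts for each Itgb2 count had a median of 0.488 in WKY rats and 0.795 in SHRs in the NTS, 0.323 and 0.699 in the CVLM, and 0.485 and 0.782 in the RVLM. The strains overlapped in this ratio in every nucleus, and no test was made of it, since it was chosen after the values of both genes were seen.

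Tmem119, a transmembrane protein that separates microglia from most other macrophages, was lower in SHRs. In the NTS it ran from 11.7 to 21.4 CPM in WKY rats (median 17.1) and from 9.32 to 18.7 CPM in SHRs (median 13.9), with 24 of 28 SHRs below the WKY median (log2 fold change -0.32, SE 0.06, adjusted p = 0.00029). In the CVLM the medians were 14.2 and 11.5 CPM, and 26 of 28 SHRs lay below the WKY median (-0.37, SE 0.08, adjusted p = 0.0014). In the RVLM the medians were 15.6 and 12.3 CPM (-0.27, SE 0.09, adjusted p = 0.042). The RVLM call was lost when any of 16 rats was left out, with an adjusted p of up to 0.12, whereas the calls in the NTS and CVLM held in all 46 such fits.

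Trem2, the lipid-sensing receptor that signals through Tyrobp, was higher in SHRs in the NTS and RVLM. In the NTS it ran from 4.64 to 12.9 CPM in WKY rats (median 8.06) and from 5.97 to 17.2 CPM in SHRs (median 11.5), with 20 of 28 SHRs above the WKY median (log2 fold change 0.30, SE 0.09, adjusted p = 0.014). In the RVLM the medians were 7.03 and 9.79 CPM, with 23 of 28 SHRs above the WKY median (0.30, SE 0.10, adjusted p = 0.048). In the CVLM they were 8.11 and 9.43 CPM, and the difference was not called (0.19, SE 0.10, adjusted p = 0.26). The RVLM value was at the threshold and lost its call without any of 37 rats, with an adjusted p of up to 0.11, whereas the NTS call held in all 46 fits. Without the RVLM library that stood apart it was 0.36 (adjusted p = 0.0046). Its adaptor Tyrobp was not called in any nucleus, with log2 fold changes of 0.02 (SE 0.10) in the NTS, -0.12 (SE 0.11) in the CVLM and -0.06 (SE 0.11) in the RVLM.

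Cd68 was higher in the RVLM of SHRs, where it ran from 0.136 to 2.33 CPM in WKY rats (median 0.682) and from 0.498 to 2.82 CPM in SHRs (median 1.47). Of 28 SHRs, 27 lay above the WKY median, and the log2 fold change was 0.78 (SE 0.19, adjusted p = 0.0043). Without the library that stood apart it was 0.74 (adjusted p = 0.0064). The same difference was 0.56 in the CVLM (SE 0.23, adjusted p = 0.11) and 0.02 in the NTS (SE 0.18, adjusted p = 0.98). Aif1 ran from 18.8 to 53.2 CPM in the CVLM of WKY rats (median 28.1) and from 16.1 to 37.8 CPM in SHRs (median 24.5), a log2 fold change of -0.29 (SE 0.09, adjusted p = 0.028). That call was lost without WKY rat 1 of 12 wk, rat 3 of 16 wk or rat 3 of 24 wk, with an adjusted p of up to 0.091. It was also lost with the replicate number as a block. In the RVLM the Aif1 difference was -0.27 (SE 0.12, adjusted p = 0.15).

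The 3 receptors Csf1r, Cx3cr1 and P2ry12 were not called between strains in any nucleus. P2ry12 had log2 fold changes of 0.00 (SE 0.06) in the NTS, -0.08 (SE 0.06) in the CVLM and -0.08 (SE 0.09) in the RVLM. Cx3cr1, the receptor for the neuronal chemokine fractalkine, had -0.05 (SE 0.06), -0.17 (SE 0.07, adjusted p = 0.15) and -0.01 (SE 0.08). Csf1r had 0.10 (SE 0.06), 0.05 (SE 0.05) and 0.22 (SE 0.09, adjusted p = 0.125), and its RVLM level was above the WKY median in 25 of 28 SHRs.

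**Figure D3:**
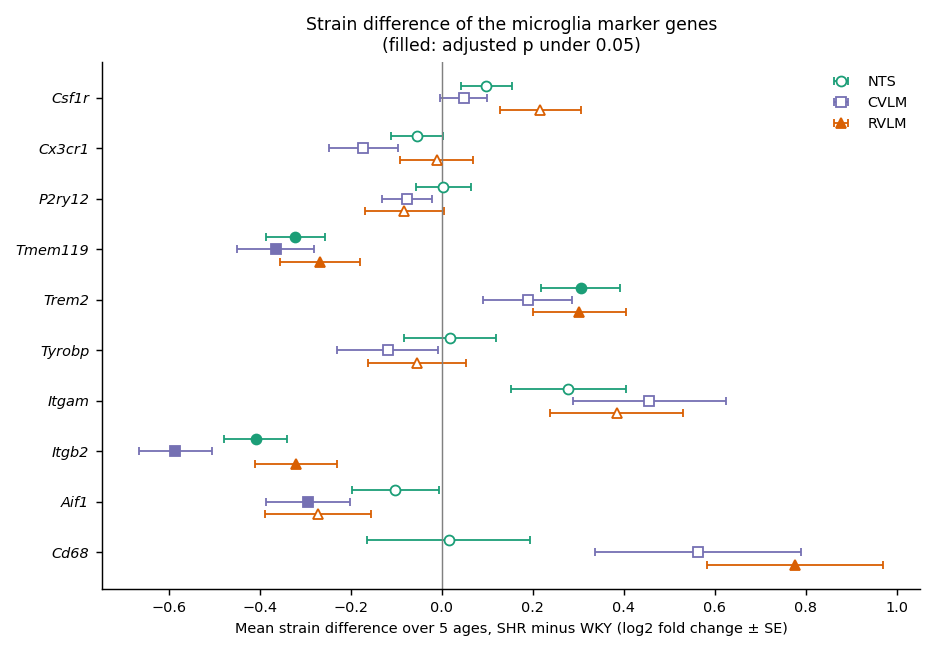
Mean strain difference over the 5 ages (SHR minus WKY, log2 fold change, horizontal axis) with its standard error as bars for each member (rows) in the NTS (circles), CVLM (squares) and RVLM (triangles). Filled symbols have an adjusted p under 0.05 by edgeR's quasi-likelihood test. Itgb2 and Tmem119 lie left of 0 in all 3 nuclei, and Trem2 and Itgam lie right of 0.

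At single ages few differences were called: 2 of 50 tests (10 genes at 5 ages) in the NTS, 5 of 50 in the CVLM and 1 of 50 in the RVLM, where 3.87% of the tests of all genes at the 5 ages in the 3 nuclei were called. In the CVLM, Itgb2 was lower in SHRs at 8, 10 and 12 wk, with log2 fold changes of -0.73, -0.76 and -0.77 and adjusted p of 0.0040, 0.0041 and 0.0082. At 8 wk it read 10.6, 8.20, 10.1, 10.6 and 8.57 CPM in the 5 WKY rats and 6.93, 4.57, 7.04, 4.98 and 5.43 CPM in the 5 SHRs, so the strains did not overlap. At 10 wk it read 11.7, 11.5, 7.43 and 11.5 CPM in WKY rats and 6.57, 5.16, 5.53, 7.50 and 6.10 CPM in SHRs, where WKY rat 3 fell among the SHRs. At 12 wk the 3 WKY rats lay at 8.81, 11.02 and 12.4 CPM and the 6 SHRs between 5.14 and 7.32 CPM (median 6.37), again apart, and the call was lost without WKY rat 3 (adjusted p = 0.11). At 16 and 24 wk the differences were -0.30 and -0.36 and were not called.

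In the NTS at 8 wk, Itgb2 read 12.8, 10.3, 12.9, 13.01 and 12.0 CPM in WKY rats and 10.1, 5.92, 7.48, 7.82 and 7.76 CPM in SHRs, without overlap (log2 fold change -0.67, SE 0.15, adjusted p = 0.0022). Trem2 in the same punches read 7.73, 6.72, 4.64, 6.23 and 7.68 CPM in WKY rats and 11.9, 12.2, 14.5, 7.21 and 9.72 CPM in SHRs, of which 4 of 5 lay above every WKY rat (0.73, SE 0.18, adjusted p = 0.0099), a call that was lost without WKY rat 3 (0.052) or SHR rat 3 (0.054). Tmem119 in the CVLM at 8 wk read 9.29, 19.7, 17.4, 18.3 and 17.9 CPM in WKY rats and 13.2, 11.8, 11.4, 9.10 and 10.9 CPM in SHRs (-0.55, SE 0.17, adjusted p = 0.042). Here WKY rat 1 fell among the SHRs and the other 4 lay above them all. That Tmem119 call was lost in 5 of the 8 other settings tried and without any of 11 rats (adjusted p of up to 0.13). Aif1 in the CVLM at 24 wk read 39.1, 39.3 and 53.2 CPM in WKY rats and from 19.0 to 37.8 CPM in 6 SHRs (median 25.9), without overlap (-0.71, SE 0.21, adjusted p = 0.031). It was lost in 4 of 8 other settings and without WKY rat 1 or 3 or SHR rat 3, 5 or 6 of that age (adjusted p of up to 0.24). Cd68 in the RVLM at 8 wk read 0.457, 0.430, 0.140, 0.360 and 0.650 CPM in WKY rats and 0.739, 1.67, 1.01, 1.10 and 1.98 CPM in SHRs (1.58, SE 0.43, adjusted p = 0.017), also without overlap but on 1 to 20 counts per library. At an adjusted p of at most 0.01 with at least a 2-fold change, 0 of these tests were called, where 1.12% of the tests of all genes were. The Cd68 call was lost without the RVLM library that stood apart (log2 fold change 1.41, adjusted p = 0.060) and without SHR rat 5 (1.38, 0.062). Leaving out the former left 0 of 50 tests called in the RVLM. When the 3 WKY rats of 8 wk with a name number of 2 were left out, together with the 2 older SHRs, none of the 8 wk differences was called, on 2 WKY rats (adjusted p of 0.16 for Itgb2 in the NTS and 0.22 in the CVLM).

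Whether the strain difference changed with age was tested over the 5 ages. No member was called in any nucleus (lowest adjusted p 0.40, for Trem2 in the NTS), by edgeR or by DESeq2, and at an unadjusted p under 0.05 there was 1 of 10 in the NTS and 0 in the other nuclei. Over all genes 0.0145%, 0.0224% and 0.00746% were called. The age at which a strain difference was called is thus not shown to be the age at which it was largest.

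Several members changed with age within a strain. In SHRs 5 of 10 were called over the 5 ages in NTS tissue, 7 for the CVLM and 4 for the RVLM, where 18.7%, 20.0% and 14.1% of genes were called. In WKY rats 2, 5 and 2 were called, where 12.5%, 22.2% and 6.79% of genes were called, and the RVLM count was 1 without the library that stood apart. Of the 60 series of means (10 genes, 2 strains and 3 nuclei), the lowest mean stood at 10 wk in 40 and the highest at 24 wk in 45. Cx3cr1 was called in both strains in all 3 nuclei. In the NTS of SHRs its mean was 18.9 ± 2.04 (SD, n = 5), 13.97 ± 1.09 (n = 5), 19.7 ± 2.17 (n = 6), 21.4 ± 3.43 (n = 6) and 23.4 ± 3.74 CPM (n = 6) in order of age. In WKY rats it was 19.1 ± 1.12 (SD, n = 5), 16.0 ± 1.10 (n = 4), 20.7 ± 4.82 (n = 3), 19.8 ± 0.985 (n = 3) and 25.3 ± 3.48 CPM (n = 3).

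The low values at 10 wk lie in libraries that all carry the name number 2, so that age and number cannot be told apart there. With the number as a term in the fit, 1, 3 and 0 members were called in SHRs and 0, 1 and 0 in WKY rats. Within the WKY rats of 8 wk, where 2 libraries carry a 1 and 3 a 2, the libraries with a 2 had the lower mean in 18 of 30 combinations of gene and nucleus, all 3 lay below the others in 2 of them and all 3 above in 2. Tyrobp in the NTS, for example, had a mean of 29.6 CPM in the 2 libraries with a 1 and 22.4 CPM in the 3 with a 2, beside 22.8 CPM at 10 wk. Csf1r in the NTS went the other way, with 100.2 CPM in the libraries with a 1 and 110.4 CPM in those with a 2, beside 110.2 CPM at 10 wk, as did P2ry12 in the CVLM, with 21.0 and 25.6 CPM, beside 20.7 CPM.

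The comparison of 24 with 8 wk does not use the 10 wk means. The 10 wk libraries still enter the fit, through the normalisation and the shared estimate of the spread. The members were higher at 24 wk in 9, 10 and 9 of 10 genes in the NTS, CVLM and RVLM of SHRs, with medians of 0.31, 0.45 and 0.32, against 0.01, 0.03 and 0.03 over all genes. In WKY rats the medians were 0.28, 0.59 and 0.49, against -0.02, -0.01 and -0.03. Few of these passed the test: 1, 2 and 0 members in SHRs, where 0.232%, 0.649% and 0.358% of genes were called, and 0, 5 and 0 in WKY rats, where 0.464%, 13.7% and 0.179% were called. Itgb2 rose in SHRs by 0.66 in the NTS (SE 0.14, adjusted p = 0.019) and by 0.73 in the CVLM (SE 0.16, adjusted p = 0.014), from means of 7.82 to 12.6 CPM and of 5.79 to 9.54 CPM. The NTS call was lost without SHR rat 2, 3, 4 or 5 of 8 wk or rat 3 or 5 of 24 wk (adjusted p of up to 0.12) and with no filter on low counts (0.058). The CVLM call was lost without SHR rat 2 or 4 of 8 wk (up to 0.090) and without the 2 libraries of uncertain age (0.053), and both calls held with the number-2 libraries left out. Csf1r rose in the CVLM of SHRs by 0.42 (SE 0.10, adjusted p = 0.038), from 89.1 to 117.8 CPM, but the call was lost without any of 13 rats (adjusted p of up to 0.12) and without the number-2 libraries (0.14). In the CVLM of WKY rats P2ry12 rose by 0.54 (adjusted p = 0.0068), Aif1 by 0.70 (0.028), Tyrobp by 0.81 (0.033), Itgam by 1.14 (0.046) and Cx3cr1 by 0.51 (0.049). Without the number-2 libraries, which leaves 2 WKY rats at 8 wk, the P2ry12 rise alone was still called. These 5 calls were lost in 1 (P2ry12), 4 (Aif1), 6 (Tyrobp), 8 (Itgam) and 31 (Cx3cr1) of the 46 fits that left out 1 rat, with an adjusted p of up to 0.060 for P2ry12, without WKY rat 1 of 24 wk, and of up to 0.19, 0.17, 0.16 and 0.23 for the others. With the replicate number as a block, the CVLM calls of Itgam and Tyrobp in WKY rats and of Csf1r in SHRs were also lost. Tmem119 stood outside the rise in WKY rats, with a difference of -0.43 in the CVLM (SE 0.20, adjusted p = 0.15). Oligodendrocyte markers were lower at 24 than at 8 wk in the same libraries, 4 of 8 in the NTS, 5 of 8 in the CVLM and 2 of 8 in the RVLM of SHRs and 5 of 8 in the CVLM of WKY rats, and their part in the rise was not tested.

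**Figure D4:**
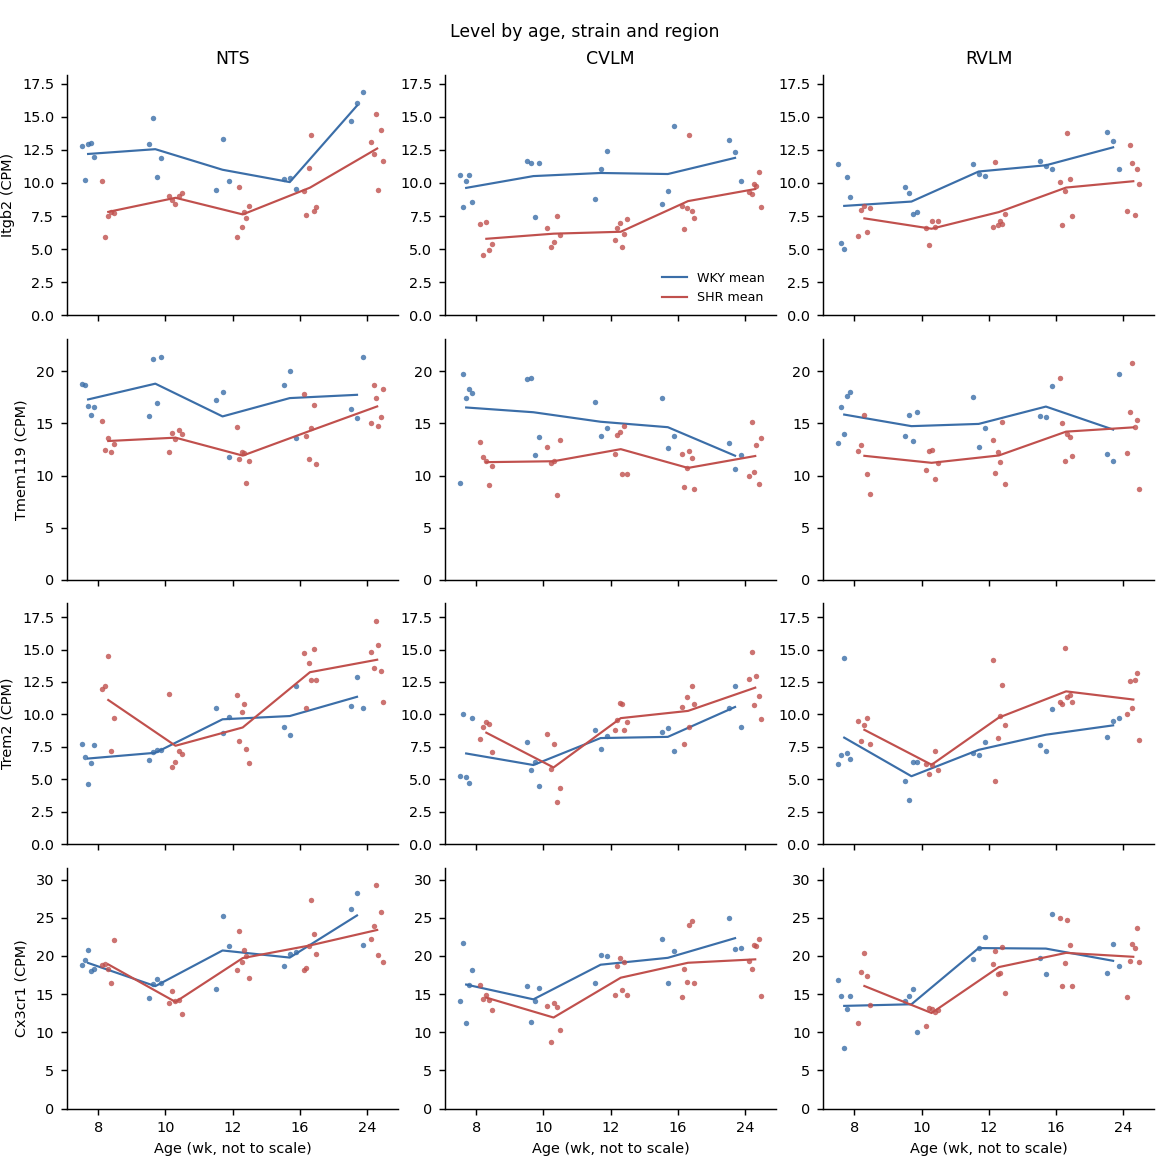
CPM (vertical axis, from 0) of Itgb2, Tmem119, Trem2 and Cx3cr1 (rows) in the NTS, CVLM and RVLM (columns) at the 5 ages in wk (horizontal axis, not to scale), 1 point per rat, with lines through the means of WKY rats (blue) and SHRs (red). Itgb2 and Tmem119 means of SHRs run below those of WKY rats except at 24 wk for Tmem119 in the RVLM, and Cx3cr1 dips at 10 wk in most panels.

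Among rats of the same group the 10 genes did not vary as 1 block. Over the 46 rats of a nucleus, after the group means were taken out, 9, 7 and 10 of 45 pairs of members (NTS, CVLM and RVLM) were correlated by Pearson's r and 8, 3 and 6 by Spearman's rho, at an adjusted p under 0.05 in a permutation test within groups over 270 tests. The median r was 0.11, 0.17 and 0.11. Aif1 and Tyrobp varied together in each nucleus, with r of 0.74, 0.77 and 0.84 and rho of 0.78, 0.77 and 0.82 in the NTS, CVLM and RVLM (adjusted permutation p of 0.0010 or less for r). Without the 2 rats farthest from the median of Aif1, r was 0.69, 0.77 and 0.81. For Trem2 and Tyrobp r was 0.78, 0.47 and 0.68 and rho 0.71, 0.39 and 0.47 in the same order, called by both measures in the NTS and RVLM but in the CVLM by r alone (adjusted permutation p of 0.034 for r and 0.070 for rho), and r was 0.74, 0.32 and 0.57 without 2 rats chosen in the same way. A second set held Csf1r. In the RVLM it varied with Cx3cr1 (r = 0.67, rho = 0.62), Itgam (r = 0.62, rho = 0.53) and Itgb2 (r = 0.59, rho = 0.54). Without the 2 rats farthest from the median of Csf1r, Itgam and Itgb2 in turn, these r were 0.61, 0.52 and 0.49. Csf1r and Cx3cr1 had r of 0.59 in the NTS and 0.45 in the CVLM, and Csf1r and Itgb2 0.61 and 0.51. These were called by both measures in the NTS but by r alone in the CVLM. Csf1r and Itgam were called in the CVLM (r = 0.48) but not in the NTS (r = 0.34). The lowest r in the RVLM, between Aif1 and Csf1r, was -0.58, and it was -0.29 without the 2 rats farthest from the median. These correlations share the library, its depth and its base composition between the genes.

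Over the 30 group means, the non-members whose pattern was most like the mean of the 10 members were Tmem176b (r = 0.95), Fcer1g, Tmem176a, Fermt3, Pltp, Sema3b, Unc93b1, Rac2, Ptpn6 and Ly86 (r = 0.88), of 13116 genes tested in all 3 nuclei. Fcer1g encodes the Fc receptor γ chain, an adaptor of the same kind as Tyrobp, and Ptpn6 a phosphatase of blood cells. Of the members themselves Cx3cr1 was the most like the mean (r = 0.92) and Tmem119 the least (r = 0.41), values that include the gene's own part in the mean.

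Genes that work with the members were compared between strains as well. Of 16 ligands and partners, 10 were tested in the NTS and 11 in each of the other nuclei, and 0, 0 and 2 were called, where 11.2%, 12.3% and 10.8% of all genes were. In the RVLM of SHRs, Plcg2, the phospholipase downstream of TREM2 and TYROBP, was higher by a log2 fold change of 1.25 (SE 0.14, adjusted p = 5.9e-09), and Sirpa, a receptor for the "do not eat" signal CD47, by 0.46 (SE 0.10, adjusted p = 0.00076). Which cells of the punch held these 2 transcripts was not measured. Il34 and Csf1, the ligands of CSF1R, and Cx3cl1, the ligand of CX3CR1, were not called between strains in any nucleus. Between nuclei some of the ligands differed. The NTS exceeded the RVLM in Il34 by 1.32 (SE 0.06), in Cx3cl1 by 0.83 (SE 0.05) and in Cd200, a neuronal ligand that restrains microglia, by 0.93 (SE 0.03). Against the CVLM the NTS was the higher in 20 of 46 rats for Il34, with medians of 18.9 CPM in both, in 32 for Cx3cl1 and in 46 for Cd200. Csf1 had medians of 20.6, 20.0 and 22.1 CPM in the NTS, CVLM and RVLM. Its NTS level was above the RVLM level in 20 of 46 rats. Hcst, Syk, Itgax, Cd200r1 and Tgfb1 were too low to be tested.

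Of 40 other microglia genes, all of them tested, 3 were higher and 7 lower in the NTS of SHRs, 3 and 8 in the CVLM, and 3 and 5 in the RVLM. Of all genes, 11.2%, 12.3% and 10.8% were called between strains in these nuclei, in either direction. P2ry6, a nucleotide receptor tied to phagocytosis, was lower by -0.73 (SE 0.11) in the NTS, -0.87 (SE 0.12) in the CVLM and -0.70 (SE 0.14) in the RVLM. Cd86, a co-stimulatory ligand, Ctss, a lysosomal protease, the inhibitory Fc receptor gene Fcgr2b and Coro1a, an actin regulator, were also lower in all 3 nuclei. Cyth4, Laptm5 and Olfml3 were higher in all 3, with Cyth4 up by 1.61 (SE 0.20), 1.97 (SE 0.25) and 1.21 (SE 0.25). Mef2c, a transcription factor, was lower in the NTS and CVLM. Between nuclei, 26 of these 40 genes were higher and 2 lower in the NTS relative to the RVLM, where 35.8% of all genes were higher and 36.9% lower. Relative to the CVLM 29 were higher and 2 lower, where 33.9% of all genes were higher and 32.0% lower. In either direction 72.7% and 65.9% of all genes were called, so the total counts called are near the background. The split by direction was not tested.

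Of 16 genes that microglia raise on activation, 11 were tested. Lpl, which encodes lipoprotein lipase, was higher in SHRs in the CVLM (0.49, SE 0.13, adjusted p = 0.0060) and RVLM (0.76, SE 0.14, adjusted p = 7.2e-05), and Lgals3, which encodes galectin-3, in the RVLM (1.24, SE 0.16, adjusted p = 1.0e-07). Ctsb was higher and Spp1 and Cd9 were lower in the RVLM, while Cd9 was lower in the CVLM and higher in the NTS. Several of these genes are also expressed by astrocytes, oligodendrocytes or neurons. Cst7, Itgax, Clec7a, Ccl3 and Ccl4 were too low to be tested.

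**Figure D5:**
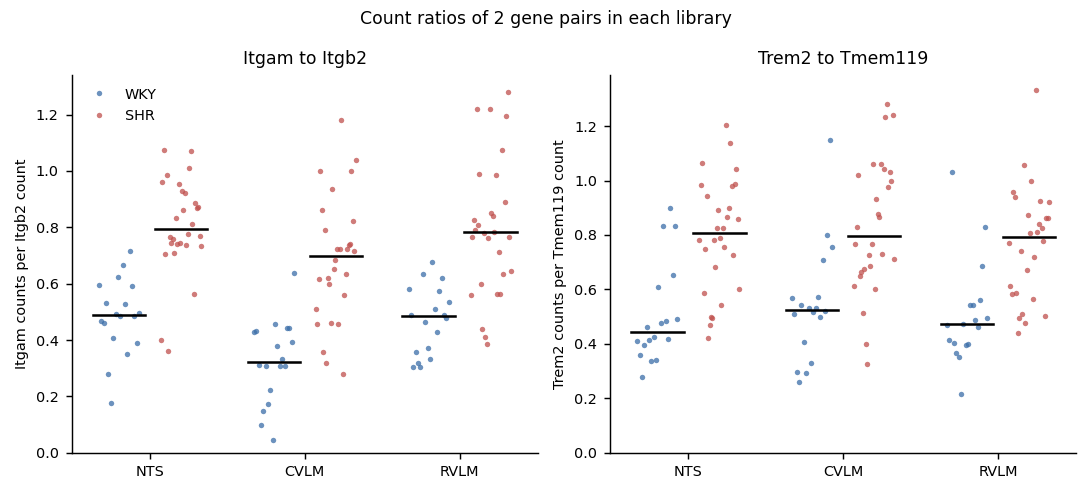
Counts of Itgam per Itgb2 count (left) and of Trem2 per Tmem119 count (right), vertical axes from 0, in each library of the 18 WKY rats (blue) and 28 SHRs (red) by nucleus, with medians as black bars. SHR medians are near 0.8 for Trem2 to Tmem119 in each nucleus and between 0.699 and 0.795 for Itgam to Itgb2, above those of WKY rats, and the strains overlap.

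Markers of other cells bear on these values. Of 12 lymphocyte markers 1 was tested, Cd4, which in the rat is also carried by macrophages and microglia. It ran from 0.312 to 1.70 CPM in WKY rats and from 3.31 to 15.2 CPM in SHRs in the NTS, from 0.180 to 1.29 and from 1.70 to 8.65 CPM in the CVLM, and from 0 to 0.975 and from 2.34 to 12.3 CPM in the RVLM, without overlap in any nucleus. The log2 fold changes were 2.67 (SE 0.18), 2.44 (SE 0.20) and 3.20 (SE 0.21). The T cell markers Cd3d, Cd3e and Cd3g and the B cell markers Cd79a, Cd79b and Ms4a1 were too low to be tested, as were the monocyte marker Ccr2 and the granulocyte markers S100a8 and S100a9. Itga4, an integrin of monocytes and lymphocytes, was higher in SHRs in all 3 nuclei (0.60, 1.02 and 1.21). Of 7 perivascular macrophage markers 3 were tested, and F13a1 was lower in SHRs in the NTS and CVLM. Their summed level ran from 3.54 to 8.85 CPM in WKY rats and from 2.54 to 7.98 CPM in SHRs in the NTS. Of 7 red cell markers 5 were tested, and 3, 5 and 5 were lower in SHRs in the NTS, CVLM and RVLM, with medians of the summed level of 815 CPM in WKY rats and 487 CPM in SHRs in the NTS, 886 and 455 CPM in the CVLM, and 808 and 465 CPM in the RVLM. Of 8 astrocyte markers, S100b was lower in SHRs in all 3 nuclei, and of 8 oligodendrocyte markers 4 were lower and 1 higher in the CVLM. In the NTS, 4 of 6 choroid plexus and ependyma markers tested were lower in SHRs. The summed level of the 6 ran from 3.66 to 4402 CPM in WKY rats (median 15.1) and from 2.07 to 18.6 CPM in SHRs (median 7.11). Of all genes, 11.2%, 12.3% and 10.8% were called between strains in the NTS, CVLM and RVLM. The part of these cells in the strain differences of the members was not tested.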

How the data were processed

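The authors punched the NTS, CVLM and RVLM bilaterally from frozen brainstem sections, pooled the punches of a rat into 1 RNA-seq library per nucleus and deposited expected counts per gene, estimated with RSEM after STAR alignment to the rat build rn6. Of the deposited expected counts 4.95% were not whole, and all were rounded. The methods name a batch correction of counts, and whether the deposited tables hold it is not given in the sources used here, nor is strandedness.

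Genes whose regularised log2 count (rlog, DESeq2 1.42.0) reached 3.5 in at least 1 library of a nucleus were kept. Strain and age were tested per nucleus with edgeR 4.0.16 (quasi-likelihood, TMM, 10 groups, R 4.3.3), and nuclei over all libraries with the rat as a block, whose dispersion trend was estimated on every 14th gene. A call is a Benjamini-Hochberg adjusted p under 0.05 over all genes tested at 1 age or contrast. The mean strain difference weights the 5 ages equally. CPM printed here used TMM over all libraries. Members' residuals from group means were correlated with 100000 permutations within groups. The scripts were tested on simulated data.

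The genes and lists were chosen with earlier results of these data known. Named members were all 10; other genes are named where they were called in a list or have a role beside a member. Replicate numbers come from the titles. No 2 libraries of a group agreed within sampling noise (lowest chi-square per gene 4.95 over 270 pairs). Rats are separate animals. Alternatives were DESeq2, its size factors, no filter, the library-name number as a term, the number-2 libraries or the 2 CVLM libraries of uncertain age left out, ages fitted alone, a replicate block, stricter thresholds and each rat left out. Leaving out the RVLM library that stood apart was added after the data were seen.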

Additional observations from a re-analysis of the deposited data

Results flagged for a closer look

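Each member was looked at in every group of 4 to 6 rats for a single value far from the others, by Dixon's ratio of gap to range, and 19 of 210 sets (9.05%) held one, where chance gives about 1 in 20.

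In the NTS, Aif1 was at 54.2 CPM in SHR rat 1 of 12 wk against 21.5 to 33.1 CPM in the others, and Tyrobp was at 42.8 CPM in the same rat against 18.9 to 27.8 CPM. Aif1 was at 49.4 CPM in SHR rat 2 of 24 wk against 36.3 to 41.0 CPM. Trem2 was at 11.6 CPM and Itgam at 3.25 CPM in SHR rat 1 of 10 wk, against 5.97 to 7.17 CPM and 6.25 to 6.83 CPM. P2ry12 was at 45.4 CPM in SHR rat 3 of 8 wk against 29.4 to 33.6 CPM.

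In the CVLM, Itgb2 was at 13.6 CPM and P2ry12 at 17.7 CPM in SHR rat 4 of 16 wk, against 6.51 to 8.28 CPM and 22.5 to 24.7 CPM. Itgb2 was at 7.43 CPM in WKY rat 3 of 10 wk against 11.5 to 11.7 CPM, and Tmem119 at 9.29 CPM in WKY rat 1 of 8 wk against 17.4 to 19.7 CPM. Tyrobp was at 30.4 CPM in WKY rat 2 of 8 wk against 15.6 to 19.6 CPM. Cd68 was at 1.19 CPM in SHR rat 3 of 8 wk against 0.515 to 0.653 CPM, and at 1.13 CPM in SHR rat 4 of 10 wk against 0.574 to 0.714 CPM.

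In the RVLM, Aif1 was at 75.2 CPM and Trem2 at 14.4 CPM in WKY rat 3 of 8 wk, the library that stood apart over all genes, against 22.7 to 37.3 CPM and 6.17 to 7.06 CPM. Aif1 was at 31.0 CPM in SHR rat 5 of 24 wk against 21.9 to 25.2 CPM. Itgb2 was at 11.6 CPM in SHR rat 2 of 12 wk against 6.71 to 7.66 CPM, Trem2 at 15.1 CPM in SHR rat 3 of 16 wk against 10.8 to 11.5 CPM, and Cx3cr1 at 10.9 CPM in SHR rat 1 of 10 wk against 12.7 to 13.1 CPM.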

How the results depend on the processing

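No value changed direction past its threshold under any alternative, and the calls of Itgb2 in 3 nuclei, Tmem119 in the NTS and CVLM, Trem2 in the NTS and Cd68 in the RVLM, for the mean strain difference, held under each one at an adjusted p under 0.05. Low counts limit Cd68 and Itgam, and 3 WKY rats at 3 of the ages limit single-age tests. Reasons for the moves below were not tested, except that stricter thresholds call less by construction.

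For the strain difference at each age (2 members called in the NTS, 5 in the CVLM, 1 in the RVLM), DESeq2 gave 4 in the NTS, the name number as a term 1 in the NTS and 0 in the RVLM, leaving out the number-2 libraries 0, 2 and 0, ages fitted alone 0, 1 and 0, no filter 3 in the CVLM, an adjusted p of at most 0.01 with a 2-fold change 0, 0 and 0, and leaving out the RVLM library that stood apart 0 in the RVLM. For the mean strain difference in the RVLM (4 called), no filter gave 2 and an adjusted p under 0.01 gave 1. For age in SHRs (5, 7 and 4), DESeq2 gave 8 in the NTS, the name number as a term 1, 3 and 0, an adjusted p under 0.01 gave 3, 4 and 0, and leaving out the number-2 libraries 7 in the RVLM. For age in WKY rats (2, 5 and 2), the name number gave 0, 1 and 0, an adjusted p under 0.01 gave 0, 2 and 0, no filter 3 in the CVLM and 0 in the RVLM, leaving out the number-2 libraries 1 in the NTS and 1 in the RVLM, and leaving out the RVLM library 1. Between CVLM and RVLM (2 called), no filter, leaving out the 2 CVLM libraries of uncertain age and an adjusted p under 0.01 each gave 1.

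With each rat left out in turn, the strain difference at each age ran from 1 to 3, 3 to 5 and 0 to 3 calls (NTS, CVLM, RVLM), the mean strain difference from 3 to 3, 2 to 4 and 2 to 5, the interaction stayed at 0, age in SHRs ran from 4 to 7, 6 to 7 and 2 to 6, and age in WKY rats from 0 to 2, 2 to 6 and 0 to 3. The nuclei were not refitted without each rat, and the name number could not be fitted there beside the rat.

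Of 54 pairs of a WKY rat and an SHR with the same age, nucleus and replicate number, 32 had deviations from their group means that correlated above 0.1 (r from -0.33 to 0.55), 12, 13 and 7 of 18 in the NTS, CVLM and RVLM. All pairs did in 4 of 15 sets of an age and a nucleus. Among the 3 to 5 numbers of a set, 56 of 108 libraries correlated best with their own number, 22, 21 and 13 of 36 in the NTS, CVLM and RVLM. Since not every pair of a nucleus passed 0.1 and no label ties a number to a shared litter or day, the numbers were not taken to pair the rats. Without pairing, 1 in 3 to 1 in 5 libraries would be expected to match their own number, by the size of the set. Matches in the NTS and CVLM were more frequent than that, so the rats are not shown to be unpaired. No test was made of these counts. With the replicate number as a block, the strain difference at each age gave 2, 4 and 1 calls, the mean difference 3, 2 and 3, the interaction 0, age in SHRs 6, 7 and 4 and age in WKY rats 2, 4 and 2. Under this block Aif1 in the CVLM (-0.26, adjusted p = 0.108) and Tmem119 in the RVLM (-0.21, adjusted p = 0.154) were not called for the mean strain difference, nor was Aif1 in the CVLM at 24 wk (-0.64, adjusted p = 0.0907), and Csf1r in SHRs and Itgam and Tyrobp in WKY rats were not called for 24 against 8 wk in the CVLM (adjusted p of 0.068, 0.075 and 0.073). Without the rat as a block, the nuclei gave 10, 10 and 2 calls.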
